A study of Mus musculus with 20 samples.

Results

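The thioredoxin, sulfiredoxin and peroxiredoxin genes were described across livers of mice that lacked cysteine or tryptophan in the diet. The 10 members are *Txn1*, *Txnrd1*, *Srxn1*, *Prdx1*, *Prdx2*, *Prdx3*, *Prdx4*, *Prdx5*, *Prdx6* and *Glrx*, taken as a list of names, of 46078 genes in the table of counts. All 10 passed the filter on low counts that left 14759 genes for testing, and each had at least 239 counts in every liver. Poly(A) RNA was sequenced from 20 livers of male mice at least 9 weeks old, on a mixed 129/C57BL/6 background. The enzyme encoded by *Cse*, cystathionine γ-lyase, splits cystathionine to release cysteine, and *Cse*-/- mice lack it in the whole body. The control genotype, *Cse*+/-, is named WT in the sample labels and heterozygous in the study's list of mice. *Cse*+/- livers came from mice on the control diet (n = 2), the cysteine-free diet (no-Cys, n = 4) and the tryptophan-free diet (no-Trp, n = 3). In *Cse*-/- mice the diets were no-Cys (n = 4), no-Trp (n = 3) and no-Trp with administration of l-buthionine sulfoximine (BSO, n = 4), an inhibitor of the first step of glutathione synthesis. There was no *Cse*-/- group on the control diet and no *Cse*+/- group with BSO among these livers. All mice were calorie restricted, and livers were collected 2 days after the change of diet.

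Thioredoxin and glutaredoxin are small proteins with a pair of reactive cysteines that reduce disulfides in other proteins. Thioredoxin reductase recharges thioredoxin with electrons from NADPH, whereas glutaredoxin is recharged by glutathione. Peroxiredoxins remove peroxides by oxidizing a cysteine of their own, thioredoxin reduces most of them again, and sulfiredoxin rescues those that were oxidized further to the sulfinic acid. In liver, *Srxn1*, *Txnrd1* and *Prdx1* are known targets of NRF2, the transcription factor of the oxidative stress response.

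Counts on genes ranged from 11785740 to 57986121 per library, and the libraries of both no-Cys groups were among the shallower, with 11785740 to 15436551. *Cth*, the symbol of *Cse* in the annotation, was at 88.4 to 332 CPM in the 9 *Cse*+/- livers and at 6.37 to 14.4 CPM in the 11 *Cse*-/- livers, where CPM, the unit of level used throughout, is the count scaled to a common library size with edgeR's TMM factors. *Alb*, a defining gene of hepatocytes, was at 25507 to 87978 CPM in every library. The summed level of 5 hepatocyte markers was 38003 to 65314 CPM in *Cse*-/- no-Cys livers, below the 82333 to 106011 CPM of *Cse*+/- no-Cys livers, and 61465 to 67853 CPM in *Cse*-/- no-Trp livers, a range that mouse av08 alone of the *Cse*-/- no-Cys group reached (65314 CPM). The counts of av08 also stood apart from those of its group, with 43.3 to 48.9 as the chi-square over genes, per gene, against the other 3 livers and 9.60 to 16.3 among these, while pairs within the other groups ranged from 12.4 to 64.2. In bulk tissue fewer cells of a type and less RNA per cell cannot be told apart. When every library was thinned to the depth of the shallowest, the number of members called was the same in each comparison.

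Between genotypes on the no-Cys diet, 4 of the 10 members were differentially expressed, by an edgeR adjusted p under 0.05 over all 14759 genes. Sulfiredoxin (*Srxn1*) and thioredoxin reductase 1 (*Txnrd1*) rose in *Cse*-/- livers, and the peroxiredoxins *Prdx2* and *Prdx4* fell. In this comparison 23.8% of all genes were called, with 11.6% higher and 12.2% lower. The 40% of members called is to be read against that share. The median log2 fold change was -0.11 over the members and -0.0093 over all genes, and the median of its absolute value was 0.284 and 0.264. The typical member thus moved about as far as the typical gene, and *Srxn1* and *Prdx4* moved farther.

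Against *Cse*-/- livers on the no-Trp diet, *Cse*-/- no-Cys livers differed in 5 members, of which 2 rose (*Srxn1*, *Txnrd1*) and 3 fell (*Prdx2*, *Prdx4*, *Prdx6*), while 10.4% of all genes were called, 5.05% higher and 5.35% lower. The median log2 fold change was 0.0050 over the members and -0.0081 over all genes. BSO on the no-Trp diet changed 2 members, *Srxn1* and *Txnrd1*, both higher, where 0.793% of all genes were called, 0.488% higher and 0.305% lower. On leaving out a library these shares, 1535 and 117 genes, ranged from 683 to 1855 and from 36 to 172 genes. Between the BSO and the no-Cys *Cse*-/- livers 1 member differed, *Prdx2*, where 2.75% of genes were called (406, and 52 to 1027 on leaving out a library). The first 2 comparisons share the *Cse*-/- no-Cys livers, and the no-Cys and BSO comparisons within *Cse*-/- share the *Cse*-/- no-Trp livers.

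None of the 10 members was called by edgeR between genotypes on the no-Trp diet, where 2.64% of genes were called, or between *Cse*+/- livers on the no-Cys and the control diet (2.18%) or on the no-Trp and the control diet (0.0474%). At an unadjusted p under 0.05, edgeR gave 1 member in each of these 3 comparisons, *Prdx4*, *Srxn1* and *Txnrd1* in that order. DESeq2 called 0, 1 and 0 members, and the member was *Srxn1*. The 2.18% stand for 322 genes, and without control mouse av22 the count was 10. The difference between genotypes itself differed between the no-Cys and no-Trp diets in 3 members by the interaction term of the edgeR fit (*Srxn1*, *Txnrd1* and *Prdx4*), where 4.36% of genes did. Without mouse av08 5 members were called between genotypes on the no-Cys diet, 4 against *Cse*-/- no-Trp and 2 between BSO and no-Cys *Cse*-/- livers, in place of 4, 5 and 1 by edgeR, and 2 in place of 3 for the interaction.

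**Figure D1:**
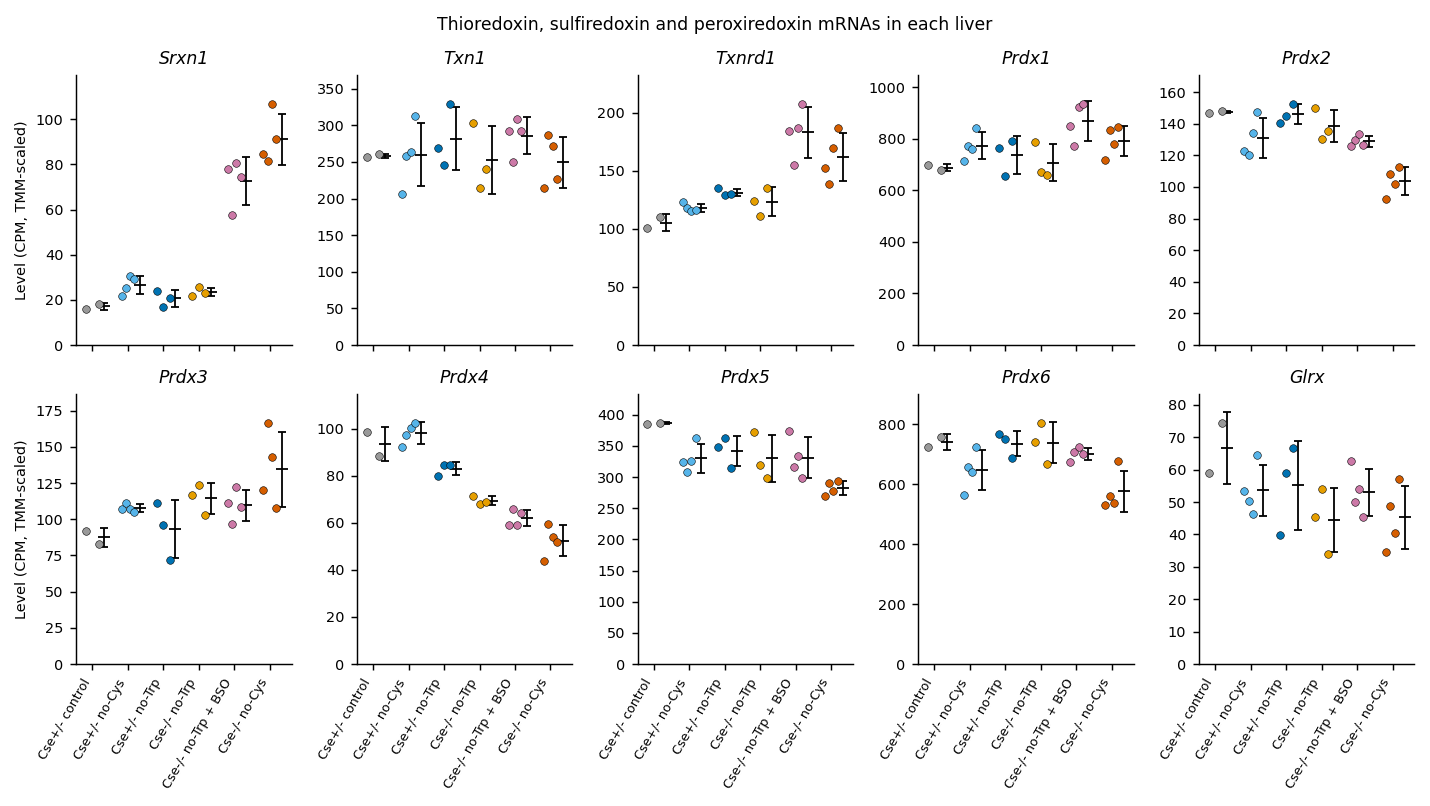
Levels of the 10 mRNAs in CPM (y axis, from 0) in each of 20 livers (points) by group (x axis), with the mean and SD of each group at the right of its points. In *Srxn1* the *Cse*-/- no-Cys and BSO livers (57.4 to 107 CPM) lie above all others (16.1 to 30.4 CPM), and in *Prdx4* the *Cse*-/- livers on any diet (43.7 to 71.6 CPM) lie below all *Cse*+/- livers (80.0 to 103 CPM).

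*Srxn1* (ENSMUSG00000032802, plus strand, chr2:152105516-152111376 of GRCm38), which encodes sulfiredoxin, had the widest range of the 10 members, with the highest liver 6.64 times the lowest. The other 9 members ranged by 1.43 to 2.35 times. In *Cse*-/- no-Cys livers *Srxn1* was at 84.8, 81.5, 107 and 91.0 CPM. In *Cse*+/- livers on the same diet it was at 21.5, 25.3, 30.4 and 29.4 CPM, and the genotypes did not overlap. *Cse*-/- no-Trp livers, at 21.9, 25.5 and 22.9 CPM, lay within the range of the *Cse*+/- no-Cys livers. With BSO on the no-Trp diet *Srxn1* was at 77.9, 57.4, 80.8 and 74.6 CPM, so that the lowest of the 4 livers was still above the highest *Cse*-/- no-Trp liver without BSO. *Cse*+/- no-Trp livers were at 24.1, 16.9 and 20.9 CPM and *Cse*+/- control livers at 16.1 and 18.3 CPM.

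The difference between genotypes on the no-Cys diet was a log2 fold change of 1.77 (0.135 as its standard error, SE, edgeR adjusted p = 7.43e-08). On the no-Cys diet *Srxn1* was 3.89-fold higher than in *Cse*-/- no-Trp livers (log2 fold change 1.96, SE 0.149, edgeR adjusted p = 5.18e-07). BSO raised it 3.11-fold (log2 fold change 1.64, SE 0.147, edgeR adjusted p = 9.59e-06). All 4 BSO livers lay below all 4 no-Cys *Cse*-/- livers, with a log2 fold change of -0.32 (95% interval -0.59 to -0.057), which did not pass the test (edgeR adjusted p = 0.168). On the no-Trp diet the genotypes differed by a log2 fold change of 0.19 (95% interval -0.13 to 0.51, edgeR adjusted p = 0.544), and the interaction of genotype and diet was 1.58 (SE 0.203, edgeR adjusted p = 5.11e-04). In *Cse*+/- mice the no-Cys diet went with a log2 fold change of 0.63 against the control diet (95% interval 0.28 to 0.99, edgeR adjusted p = 0.0553), with no overlap between 4 and 2 livers. That difference passed the threshold with DESeq2 (adjusted p = 0.0164), without a filter on low counts (edgeR adjusted p = 0.0263), with a filter of a mean CPM of at least 1 (edgeR adjusted p = 0.0465) and without mouse av01 (edgeR adjusted p = 0.0231).

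In the order of their means, *Srxn1* was highest in *Cse*-/- no-Cys (91.1 ± 11.3 CPM, SD, n = 4), then *Cse*-/- no-Trp + BSO (72.7 ± 10.5, n = 4), *Cse*+/- no-Cys (26.7 ± 4.06, n = 4), *Cse*-/- no-Trp (23.4 ± 1.87, n = 3), *Cse*+/- no-Trp (20.6 ± 3.60, n = 3) and *Cse*+/- control livers (17.2 ± 1.55, n = 2). The ranges of the first 3 groups did not overlap, and from *Cse*+/- no-Cys livers downwards each group overlapped with the next. No 61-base word of the *Srxn1* transcripts was found in another gene.

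The sequences before the start of *Srxn1*, *Txnrd1* and *Prdx1* are shown because these 3 members are known NRF2 targets and the first 2 of them rose together. The 250 bases upstream of each RefSeq start on GRCm38.p6 were searched on both strands for TGACNNNGC and TGAGNNNGC, 2 forms of the core of the antioxidant response element that NRF2 binds, and for TGAGTCA, the element of AP-1. The last overlaps with the second where the free letters allow it. Capitals mark the matches, in the direction of the gene, so that a match on the opposite strand appears as its complement read backwards. For *Txnrd1*, the only 1 of 3 start sites with a match is given.
Srxn1 (plus strand, chr2:152105274-152105523): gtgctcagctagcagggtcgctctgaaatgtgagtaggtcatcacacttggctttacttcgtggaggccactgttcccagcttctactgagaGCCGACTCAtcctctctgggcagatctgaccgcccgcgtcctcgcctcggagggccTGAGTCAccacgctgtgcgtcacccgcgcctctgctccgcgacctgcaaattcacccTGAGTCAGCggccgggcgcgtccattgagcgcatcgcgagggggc
Txnrd1 (plus strand, chr10:82858956-82859205): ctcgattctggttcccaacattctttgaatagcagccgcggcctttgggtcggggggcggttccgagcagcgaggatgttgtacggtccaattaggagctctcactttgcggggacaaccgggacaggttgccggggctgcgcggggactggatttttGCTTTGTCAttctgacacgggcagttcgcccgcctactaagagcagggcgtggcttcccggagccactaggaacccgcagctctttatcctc
Prdx1 (plus strand, chr4:116685349-116685598): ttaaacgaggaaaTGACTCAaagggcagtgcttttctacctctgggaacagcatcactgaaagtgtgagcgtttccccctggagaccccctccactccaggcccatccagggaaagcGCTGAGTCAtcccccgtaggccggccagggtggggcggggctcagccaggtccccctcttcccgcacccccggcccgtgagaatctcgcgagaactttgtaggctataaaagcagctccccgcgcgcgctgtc

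In the *Srxn1* window TGAGTCAGC begins 45 bases before the start and holds both TGAGNNNGC and TGAGTCA. A second TGAGTCA begins 102 bases before it, and TGAGTCGGC lies on the opposite strand, with its far end 158 bases before the start. The *Txnrd1* window holds TGACAAAGC on the opposite strand, with its far end 92 bases before the start. In the *Prdx1* window TGACTCAGC on the opposite strand, 133 bases before the start at its far end, overlaps with TGAGTCA on the plus strand, and another TGAGTCA lies on the opposite strand 237 bases before the start. Of the 10 members, 9 had a window (*Prdx6* had none), 12 windows in all, and the only other match was TGAGTCA on the opposite strand of *Glrx*, in windows of 2 starts that are 1 base apart. Among all 32851 RefSeq windows of this length, 10.2% held TGACNNNGC, 14.4% TGAGNNNGC, 23.0% at least 1 of these and 4.46% TGAGTCA, so that such letters are not rare. A match is a run of letters and was not tested as a binding site.

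*Txnrd1* (ENSMUSG00000020250, plus strand, chr10:82833951-82897712) encodes the cytosolic thioredoxin reductase, a selenoprotein. It was at 153, 139, 169 and 187 CPM in *Cse*-/- no-Cys livers and at 123, 118, 115 and 116 CPM in *Cse*+/- no-Cys livers, without overlap. *Cse*-/- no-Trp livers were at 124, 111 and 135 CPM, close to the *Cse*+/- livers, and with BSO the values were 184, 155, 186 and 208 CPM. *Cse*+/- no-Trp livers were at 135, 129 and 129.9 CPM and control livers at 100.4 and 110.5 CPM. All 8 livers of the no-Cys and BSO *Cse*-/- groups were thus above all 12 others, as they were for *Srxn1*, although the step was smaller.

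*Txnrd1* was 1.37-fold higher between genotypes on the no-Cys diet (log2 fold change 0.46, SE 0.0995, edgeR adjusted p = 0.00261) and 1.48-fold higher with BSO (log2 fold change 0.57, SE 0.108, edgeR adjusted p = 0.0137). Against *Cse*-/- no-Trp livers the no-Cys diet gave a log2 fold change of 0.39 (SE 0.108, edgeR adjusted p = 0.0264). The BSO and no-Cys *Cse*-/- livers overlapped, at a log2 fold change of 0.18 (95% interval -0.029 to 0.38, edgeR adjusted p = 0.328). The interaction of genotype and diet was 0.54 (SE 0.152, edgeR adjusted p = 0.0468). The no-Trp diet in *Cse*+/- mice went with 0.32 against control (95% interval 0.046 to 0.59, edgeR adjusted p = 0.461), and the no-Cys diet with 0.16 (95% interval -0.092 to 0.42, edgeR adjusted p = 0.538). The call with BSO was lost without mouse av09 (edgeR adjusted p = 0.0501) or av15 (0.0918), and the call against *Cse*-/- no-Trp without av07, av08, av14 or av15 (up to 0.0909). With the other groups left out of the model both were lost (0.0700 and 0.107), the second also with no filter on low counts (0.0535). The call of the interaction was lost on leaving out 11 of the 14 libraries in turn (edgeR adjusted p from 0.0309 to 0.0971 over the 14).

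**Figure D2:**
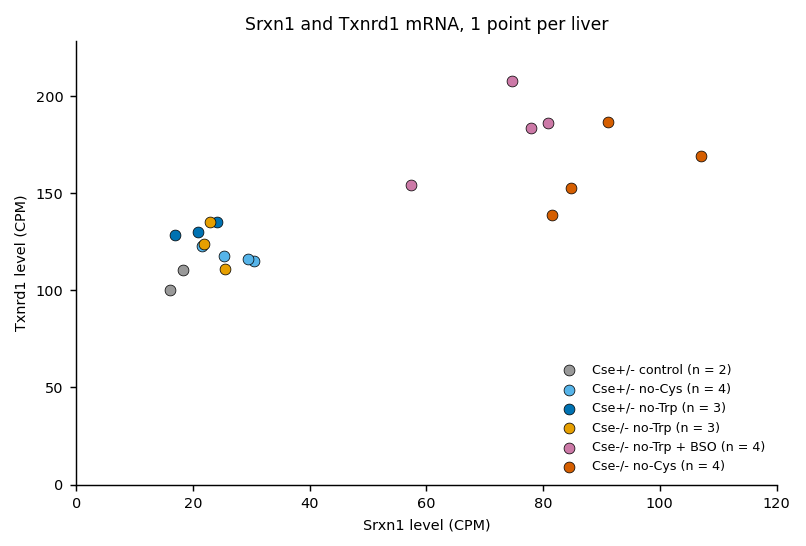
*Txnrd1* (y axis, CPM) against *Srxn1* (x axis, CPM) in 20 livers, 1 point each, coloured by group. The 8 *Cse*-/- livers on the no-Cys diet or on no-Trp with BSO form the upper right set, from 57.4 CPM of *Srxn1* and 139 CPM of *Txnrd1*, and the 12 other livers reach at most 30.4 CPM and 135 CPM.

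Across the 20 livers the Pearson correlation of log2 CPM between *Srxn1* and *Txnrd1* was 0.841, the highest of the 45 pairs of members. It rests mostly on the difference between groups, since the correlation of the deviations from the group means was 0.340. The highest within groups was 0.783, between *Txn1* and *Prdx1*, whose correlation over all livers was 0.626. The lowest over all livers was -0.822, between *Srxn1* and *Prdx4* (-0.131 within groups), and the lowest within groups -0.282, between *Txnrd1* and *Prdx3*. These points share libraries and scaling factors, and 8 of the 20 come from the 2 groups with high *Srxn1*.

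Of 9438 genes with a mean of at least 5 CPM, those with a pattern over the 20 livers most like that of *Srxn1* were *Pir* (Pearson r of log2 CPM 0.9747), *Slc48a1* (0.965), *Abcf3* (0.955), *Ftl1* (0.955) and *Ephx1* (0.955). Their log2 fold changes between genotypes on the no-Cys diet were 1.43, 1.41, 0.61, 0.88 and 1.29, and those with BSO 1.29, 0.86, 0.44, 0.68 and 1.33. For *Txnrd1* the most alike were *Txlna* (0.934), *Cds2* (0.927), *Ugdh* (0.919), *Ugt2b35* (0.897) and *Gfpt1* (0.891). Their log2 fold changes with BSO were 0.61, 0.46, 1.52, 1.18 and 0.72, beside 0.34, 0.55, 1.65, 1.25 and 0.82 between genotypes on the no-Cys diet.

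*Txn1* (ENSMUSG00000028367, minus strand, chr4:57943373-57956411), which encodes the cytosolic thioredoxin that *Txnrd1* recharges, passed no test. It ranged from 215 to 287 CPM in *Cse*-/- no-Cys livers, from 206 to 312 CPM in *Cse*+/- no-Cys livers, from 214 to 303 CPM in *Cse*-/- no-Trp livers and from 249 to 308 CPM with BSO. The log2 fold change between genotypes on the no-Cys diet was -0.059 (95% interval -0.34 to 0.22, edgeR adjusted p = 0.791). In the other 2 main comparisons it was -0.016 (-0.32 to 0.29) and, with BSO, 0.18 (-0.13 to 0.48). The 6 groups overlapped with their neighbours throughout the order of their means, from 286 ± 25.3 CPM (SD, n = 4) with BSO to 249.7 ± 34.7 CPM (SD, n = 4) in *Cse*-/- no-Cys livers. *Txnrd1* thus rose in comparisons in which the mRNA of its substrate did not pass the test.

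*Prdx1* (ENSMUSG00000028691, plus strand, chr4:116685544-116700822) encodes a cytosolic 2-Cys peroxiredoxin. It ranged from 716 to 844 CPM in *Cse*-/- no-Cys livers and from 715 to 842 CPM in *Cse*+/- no-Cys livers, which is nearly the same range (log2 fold change 0.038, 95% interval -0.16 to 0.24, edgeR adjusted p = 0.809). *Cse*-/- no-Trp livers ranged from 659.6 to 789 CPM, *Cse*+/- no-Trp livers from 654 to 790.3 CPM and control livers from 678 to 697 CPM. BSO livers were highest, at 770.4 to 936 CPM, with a log2 fold change of 0.30 against no-Trp alone (95% interval 0.085 to 0.51, edgeR adjusted p = 0.187), which did not pass. Of its 61-base words, 6.04% occur in other genes, mostly the copies *Gm21399* and *Gm7204*. Summed over 8 markers, Kupffer cell and macrophage mRNAs were at 233 to 306 CPM in *Cse*-/- no-Cys and 289 to 361 CPM in *Cse*+/- no-Cys livers, and all 8 had a negative log2 fold change in that comparison (median -0.31). None of them was called by edgeR or DESeq2, and 3 had an unadjusted p under 0.05 in edgeR. Their part in the members' differences was not tested.

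*Prdx2* (ENSMUSG00000005161, plus strand, chr8:84969587-84974834), a cytosolic 2-Cys peroxiredoxin that is among the most abundant proteins of red cells, was lowest in *Cse*-/- no-Cys livers. These were at 92.3, 108, 102 and 113 CPM, below the 122, 120.2, 134 and 148 CPM of *Cse*+/- no-Cys livers. *Cse*-/- no-Trp livers were at 149.9, 130.3 and 136 CPM and BSO livers at 126, 129.6, 134 and 127 CPM. *Cse*+/- no-Trp livers, at 141, 145 and 153 CPM, and control livers, at 147 and 148 CPM, were at the upper end. Only the *Cse*-/- no-Cys group was apart from its neighbour in the order of means, and the other 5 overlapped from each to the next.

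*Prdx2* fell between genotypes on the no-Cys diet (log2 fold change -0.34, SE 0.0826, edgeR adjusted p = 0.00577) and against *Cse*-/- no-Trp livers (log2 fold change -0.42, SE 0.0884, edgeR adjusted p = 0.00639, and 0.0562 with the other groups left out of the model). In BSO livers it was higher than in no-Cys *Cse*-/- livers by 0.31 (SE 0.0824, edgeR adjusted p = 0.0457), a call that was lost on leaving out any of 7 of the 8 libraries (up to 0.178). BSO itself went with -0.10 (95% interval -0.29 to 0.080, edgeR adjusted p = 0.675). On the no-Trp diet the genotypes differed by -0.077 (95% interval -0.28 to 0.12), and the interaction of -0.26 (95% interval -0.52 to 0.0016) did not pass (edgeR adjusted p = 0.261).

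On the no-Cys diet red cell mRNAs moved with *Prdx2* between genotypes. All 5 red cell markers (*Hba-a1*, *Hba-a2*, *Hbb-bs*, *Hbb-bt*, *Alas2*) fell on the no-Cys diet (median of their log2 fold changes -1.78), and 3 of the 5 fell against *Cse*-/- no-Trp livers. None was at 0 in a group. Their summed level was 69.1 to 114 CPM in *Cse*-/- no-Cys livers and 201 to 406 CPM in *Cse*+/- no-Cys livers. It was 119 to 184 CPM in *Cse*-/- no-Trp, 211 to 258 CPM in *Cse*+/- no-Trp, 68.3 to 166 CPM in BSO and 188 to 403 CPM in control livers. Between genotypes on the no-Trp diet all 5 had a negative log2 fold change (median -0.66), while *Prdx2* was at -0.077. None of the 5 was called there by edgeR or DESeq2, and 1 had an unadjusted p under 0.05 in edgeR. In BSO against *Cse*-/- no-Cys livers all 5 markers had higher fitted levels, as *Prdx2* had (median of their log2 fold changes 0.57). None was called by edgeR, 3 had an unadjusted p under 0.05, DESeq2 called 1, and the sums overlapped, the lowest of both groups being a BSO liver. Of the 5 hepatocyte markers, 3 were higher in BSO than in *Cse*-/- no-Cys livers, and their part in the *Prdx2* difference was not tested. The part of red cells in the *Prdx2* differences was not tested. Of the 61-base words of *Prdx2*, 10.4% are shared with *Junb* and *Rnaseh2a*, which overlap it on the opposite strand, and with *Tdpx-ps1*, and the kit does not mark strand. *Junb* was at 19.6 to 66.0 CPM and *Rnaseh2a* at 19.1 to 30.7 CPM in all livers, and neither was called between genotypes on the no-Cys diet (edgeR adjusted p = 0.476 and 0.307).

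**Figure D3:**
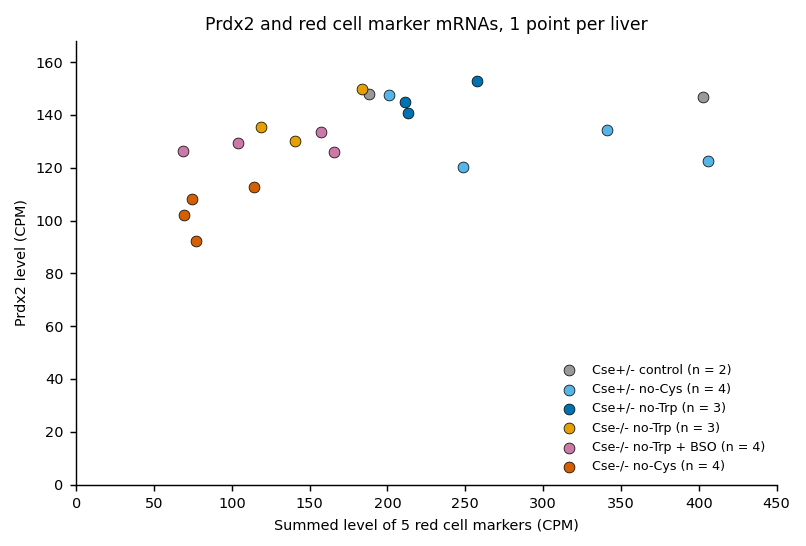
*Prdx2* (y axis, CPM from 0) against the summed level of 5 red cell marker mRNAs (x axis, CPM) in 20 livers, 1 point each, coloured by group. At sums of 68.3 to 166 CPM the BSO livers have 126 to 134 CPM of *Prdx2*, and at sums of 69.1 to 114 CPM the *Cse*-/- no-Cys livers have 92.3 to 113 CPM.

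*Prdx3* (ENSMUSG00000024997, minus strand, chr19:60864051-60874556) encodes the mitochondrial 2-Cys peroxiredoxin. It ranged from 108 to 167 CPM in *Cse*-/- no-Cys livers, the group with the widest spread, and from 105 to 111 CPM in *Cse*+/- no-Cys livers. The log2 fold change of 0.32 (95% interval 0.048 to 0.59, edgeR adjusted p = 0.0813) did not pass and passed without mouse av08 (0.41, edgeR adjusted p = 0.0259), the lowest liver of the *Cse*-/- no-Cys group. Against *Cse*-/- no-Trp livers (103 to 124 CPM) it was 0.23 (95% interval -0.061 to 0.53, edgeR adjusted p = 0.309), and with BSO (96.8 to 123 CPM) -0.060 (95% interval -0.35 to 0.23, edgeR adjusted p = 0.908). *Cse*+/- no-Trp livers ranged from 71.7 to 111 CPM and control livers from 82.8 to 92.1 CPM.

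*Prdx4* (ENSMUSG00000025289, minus strand, chrX:155323918-155340754) encodes the peroxiredoxin of the endoplasmic reticulum, which passes oxidizing power on to newly made proteins. It was at 43.7, 59.7, 54.0 and 52.0 CPM in *Cse*-/- no-Cys livers, about 0.533 times the level of *Cse*+/- no-Cys livers, which were at 92.2, 97.5, 100.4 and 103 CPM. *Cse*-/- no-Trp livers lay between these, at 71.6, 67.8 and 68.99 CPM, and BSO livers at 59.2, 66.0, 59.0 and 64.2 CPM overlapped with the no-Cys *Cse*-/- livers only at their low end. *Cse*+/- no-Trp livers were at 80.0, 84.8 and 84.6 CPM and control livers at 98.8 and 88.3 CPM. In the order of means, *Cse*+/- no-Cys overlapped with control and BSO with *Cse*-/- no-Cys, and control, *Cse*+/- no-Trp, *Cse*-/- no-Trp and BSO livers each stood apart from the next.

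*Prdx4* fell between genotypes on the no-Cys diet (log2 fold change -0.91, SE 0.0847, edgeR adjusted p = 7.41e-07). Relative to *Cse*-/- no-Trp livers it had a log2 fold change of -0.41 (SE 0.0902, edgeR adjusted p = 0.00806, and 0.0682 with the other groups left out of the model). Between genotypes on the no-Trp diet it was -0.26 (95% interval -0.46 to -0.058), with no overlap between 3 and 3 livers, and did not pass (edgeR adjusted p = 0.153). The interaction was -0.65 (SE 0.128, edgeR adjusted p = 0.00711), so that the difference between genotypes was larger on the no-Cys diet. BSO went with -0.16 (95% interval -0.35 to 0.026, edgeR adjusted p = 0.466), and BSO against no-Cys *Cse*-/- livers with 0.25 (95% interval 0.071 to 0.42, edgeR adjusted p = 0.109). Of the 5 hepatocyte markers, 4 fell and 1 rose between genotypes on the no-Cys diet, at a median of -0.77 for their log2 fold changes, and 3 fell against *Cse*-/- no-Trp livers. Their part in the result was not tested. Mouse av08, whose hepatocyte sum of 65314 CPM was within the *Cse*-/- no-Trp range, had 52.0 CPM of *Prdx4*, below all *Cse*-/- no-Trp livers. Its *Prdx2* (113 CPM) and *Prdx5* (294 CPM) also lay below the *Cse*-/- no-Trp ranges. Its *Prdx6* (677 CPM), *Prdx3* (108 CPM) and *Txn1* (226 CPM) lay within them, and its *Srxn1*, *Txnrd1*, *Prdx1* and *Glrx* above them. Whether the hepatocyte sum bears on these values was not tested. No 61-base word of *Prdx4* is shared with another gene.

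*Prdx5* (ENSMUSG00000024953, minus strand, chr19:6906697-6910106), an atypical 2-Cys peroxiredoxin of mitochondria, peroxisomes and cytosol, ranged from 269 to 294 CPM in *Cse*-/- no-Cys livers, below the 308 to 363 CPM of *Cse*+/- no-Cys and the 298 to 373 CPM of *Cse*-/- no-Trp livers. The log2 fold change was -0.22 in both comparisons (95% intervals -0.41 to -0.034 and -0.43 to -0.020), and neither passed (edgeR adjusted p = 0.0797 and 0.151). With BSO it ranged from 299 to 375 CPM, at a log2 fold change of 0.0049 (95% interval -0.20 to 0.21, edgeR adjusted p = 0.992). *Cse*+/- control livers, at 385 and 388 CPM, were above all *Cse*+/- no-Trp livers (315 to 363 CPM). Of its 61-base words, 14.8% overlap with *Trmt112* on the opposite strand, which was at 9.85 to 17.7 CPM in all livers.

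*Prdx6* (ENSMUSG00000026701, minus strand, chr1:161240112-161251219) encodes the 1-Cys peroxiredoxin, which uses glutathione in place of thioredoxin and also acts on phospholipids. It ranged from 529.6 to 677 CPM in *Cse*-/- no-Cys livers, 562 to 724 CPM in *Cse*+/- no-Cys, 668 to 805 CPM in *Cse*-/- no-Trp and 674 to 724 CPM in BSO livers. It fell against *Cse*-/- no-Trp (log2 fold change -0.36, SE 0.103, edgeR adjusted p = 0.0329), although the ranges overlapped, and that call was lost on leaving out 5 of the 7 libraries in turn (av05, av06, av07, av14 or av15, up to 0.104), with no filter on low counts (0.0599) and with the other groups left out of the model (0.133). For the genotypes on the no-Cys diet it was -0.16 (95% interval -0.37 to 0.036, edgeR adjusted p = 0.227), and with BSO -0.073 (95% interval -0.29 to 0.14, edgeR adjusted p = 0.827). BSO livers differed from no-Cys *Cse*-/- livers by 0.28 (95% interval 0.083 to 0.48, edgeR adjusted p = 0.106), which passed without mouse av08 (0.37, edgeR adjusted p = 0.0188). *Cse*+/- no-Trp and control livers ranged from 688 to 767 CPM and from 722 to 758 CPM.

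*Glrx* (ENSMUSG00000021591, plus strand, chr13:75839868-75850154), which encodes the cytosolic glutaredoxin, passed no test and had the widest intervals. It ranged from 34.7 to 57.1 CPM in *Cse*-/- no-Cys, 46.2 to 64.5 CPM in *Cse*+/- no-Cys, 34.1 to 54.0 CPM in *Cse*-/- no-Trp, 45.4 to 62.5 CPM in BSO, 39.8 to 66.6 CPM in *Cse*+/- no-Trp and 59.0 to 74.6 CPM in control livers. Each group overlapped with the next in the order of means. Between genotypes on the no-Cys diet its log2 fold change was -0.25 (95% interval -0.62 to 0.12, edgeR adjusted p = 0.336), 0.026 against *Cse*-/- no-Trp livers (-0.37 to 0.42) and 0.26 with BSO (-0.14 to 0.65).

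**Figure D4:**
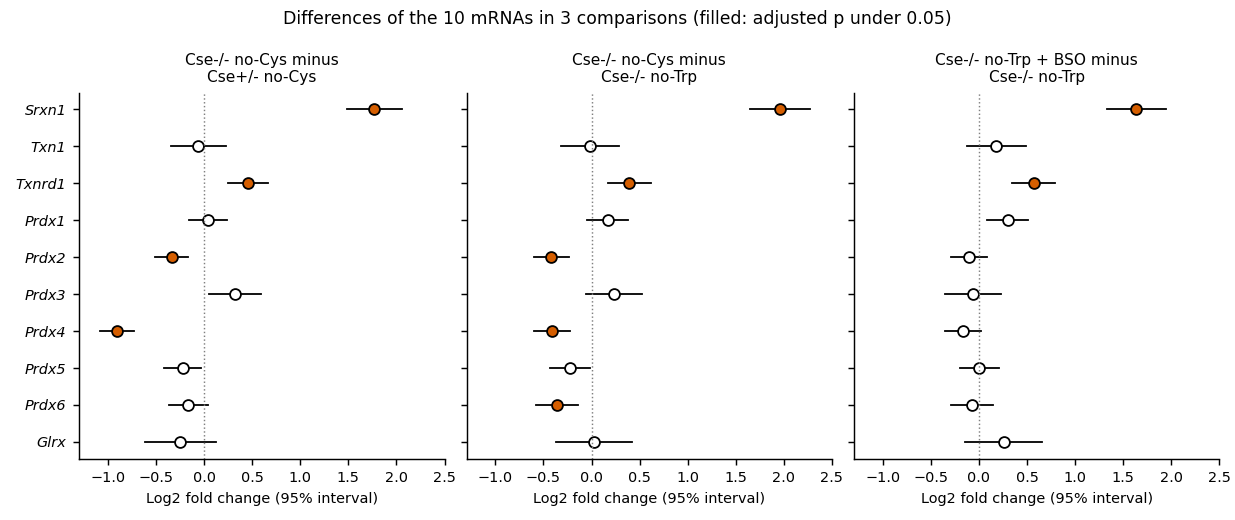
Log2 fold change (x axis) of each member (y axis) with its 95% interval in 3 comparisons, filled where the edgeR adjusted p was under 0.05. *Srxn1* lies at 1.64 to 1.96 and *Txnrd1* at 0.39 to 0.57 in all 3, whereas *Prdx2* and *Prdx4* lie to the left and are filled only in the 2 comparisons with *Cse*-/- no-Cys livers.

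Levels of different members can be set side by side only per length, as RPKM (CPM per kilobase). Over the 20 livers and the union of each gene's exons, *Prdx1* was at 254 ± 26.9 RPKM (SD, n = 20) and *Txn1* at 252 ± 33.3, and *Txn1* was above *Prdx1* in 3 of the 6 groups. With the longest transcript as length *Prdx1* was at 336 ± 35.7 and *Txn1* again at 252. By the union of exons *Prdx5* followed at 153 ± 17.0 RPKM, *Prdx6* at 141 ± 16.4, *Prdx3* at 74.6 ± 13.7, *Prdx2* at 42.7 ± 5.52 and *Prdx4* at 35.5 ± 8.54. *Txnrd1* was at 19.95 ± 4.33 RPKM, *Srxn1* at 16.5 ± 11.03 and *Glrx* at 9.47 ± 1.94. *Srxn1* moved in this order with the group, from 6.10 ± 0.549 RPKM (SD, n = 2) in control to 32.3 ± 4.01 (SD, n = 4) in *Cse*-/- no-Cys livers, where it was above *Txnrd1* (22.9 ± 2.95, n = 4) and *Prdx4* (24.9 ± 3.14, n = 4). The length used moved *Prdx6*, which was at 265 ± 30.8 RPKM with its longest transcript, for *Prdx2* (80.8 ± 10.5), *Prdx4* (72.9 ± 17.6) and *Txnrd1* (39.0 ± 8.46). With that length *Srxn1*, at 32.4 RPKM in *Cse*-/- no-Cys livers, was below *Txnrd1* (44.7) and *Prdx4* (51.1) there.

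**Figure D5:**
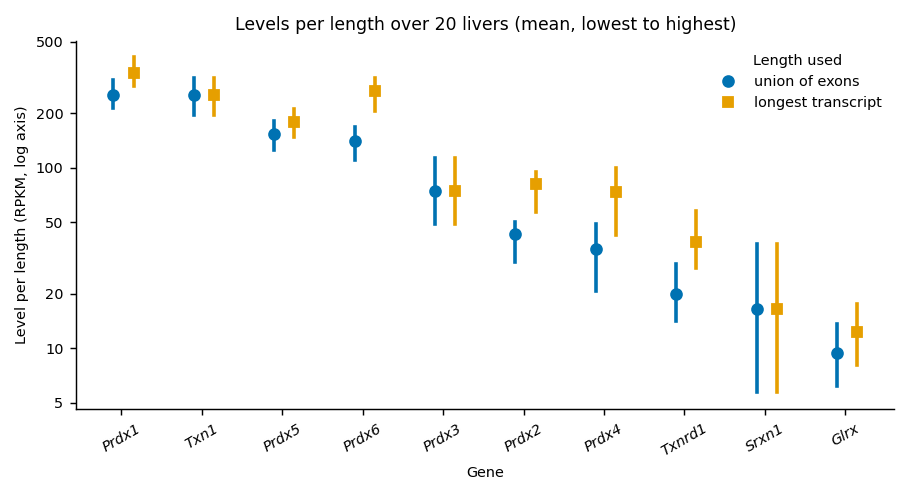
Level per length of the 10 members in RPKM (y axis, log scale) over 20 livers, as the mean (point) and the lowest to highest liver (line), with the union of exons (circles) or the longest transcript (squares) as length. *Prdx1* and *Txn1* lead at 254 and 252 RPKM by the union of exons, and *Srxn1* has the longest line, from 5.72 to 37.9 RPKM.

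The 6 peroxiredoxins together were at 662 ± 44.2 RPKM (SD, n = 4) in *Cse*-/- no-Cys, 705 ± 44.3 (SD, n = 4) in *Cse*+/- no-Cys and 732 ± 32.2 (SD, n = 4) in BSO livers, with overlapping ranges. Of that sum *Prdx1* made up 39.3% ± 0.579 in *Cse*-/- no-Cys and 35.99% ± 0.412 in *Cse*+/- no-Cys livers (SD, n = 4 each), and the ranges of 39.0 to 40.2% and 35.6 to 36.5% did not overlap. *Prdx4* made up 3.74% ± 0.282 and 6.62% ± 0.190, *Prdx2* 5.14% ± 0.156 and 6.10% ± 0.304, and *Prdx3* 13.7% ± 2.36 and 10.4% ± 0.767. In BSO livers *Prdx1* was at 39.0% ± 2.16 (SD, n = 4), against 33.3% ± 1.52 (SD, n = 3) in *Cse*-/- no-Trp livers. On the no-Cys diet the peroxiredoxin mRNA of *Cse*-/- livers thus held a larger share of *Prdx1* than that of *Cse*+/- livers, although *Prdx1* itself did not pass the test, and smaller shares of *Prdx2* and *Prdx4*. With the longest transcripts as lengths the *Prdx1* shares were 37.1% and 33.0%. The shares were not tested.

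Of 29 further genes of the thioredoxin fold, sestrin and methionine sulfoxide reductase families, 11 differed between genotypes on the no-Cys diet, 4 higher and 7 lower (37.9%, against 23.8% of all genes), and their median log2 fold change was -0.046. The stress-induced sestrin *Sesn2* rose by 0.77 on the log2 scale (SE 0.187, edgeR adjusted p = 0.00556), and *Txndc11*, a thioredoxin-domain protein of the endoplasmic reticulum, by 0.49 (edgeR adjusted p = 0.0126). Both other thioredoxin reductases fell, the mitochondrial *Txnrd2* with -0.56 (26.7 ± 1.01 against 39.3 ± 4.13 CPM, SD, n = 4 each, edgeR adjusted p = 3.08e-04) and *Txnrd3* with -0.70 (6.18 ± 0.897 against 9.99 ± 1.03 CPM, SD, n = 4 each, edgeR adjusted p = 0.0157). *Txnrd1*, at 162 ± 20.9 against 118 ± 3.56 CPM (SD, n = 4 each), was the member of the 3 that rose. The methionine sulfoxide reductases *Msrb1* and *Msrb3* fell, with -0.57 and -0.65, as did the membrane thioredoxins of the endoplasmic reticulum *Tmx4* (-0.70) and *Tmx3* (-0.46). *Txnip*, the inhibitor of thioredoxin, had a log2 fold change of 0.74 with a wide interval (-0.13 to 1.62, edgeR adjusted p = 0.210), and is named after its value was seen.

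Relative to *Cse*-/- no-Trp livers, 3 of the 29 differed, 1 higher and 2 lower (10.3%, against 10.4% of all genes). The 2 lower ones were *Msrb1* and *Tmx4*, with log2 fold changes of -0.58 and -0.47. The other genes named above were not called there. Their log2 fold changes were -0.059 (*Txnrd2*), -0.38 (*Txnrd3*), -0.15 (*Tmx3*), -0.34 (*Txnip*), 0.30 (*Msrb3*), 0.51 (*Sesn2*) and 0.40 (*Txndc11*). Among the 29, edgeR called none with BSO (5 at an unadjusted p under 0.05, none by DESeq2) and none between BSO and no-Cys *Cse*-/- livers (6 unadjusted, 3 by DESeq2). It called 3 between genotypes on the no-Trp diet (10.3%, against 2.64% of all genes) and none for the no-Cys diet in *Cse*+/- mice (3 unadjusted, 1 by DESeq2) or the no-Trp diet (2 unadjusted, none by DESeq2). *Msrb3* was 1 of the 3 called between genotypes on the no-Trp diet, lower with -0.65 (edgeR adjusted p = 0.0166), as on the no-Cys diet. The interaction was called in 1 of the 29, *Msrb2*, lower (3.45%, against 4.36% of all genes).

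Of 10 other NRF2 targets, 9 were tested, and 5 rose between genotypes on the no-Cys diet (11.6% of all genes did), 4 against *Cse*-/- no-Trp (5.05%) and 3 with BSO (0.488%), and none was called lower. Between genotypes on the no-Cys diet 2 of the 9 had a negative log2 fold change, *Me1* with -0.42 (edgeR adjusted p = 0.149) and *G6pdx* with -0.23 (edgeR adjusted p = 0.341). In *Cse*+/- livers on the no-Cys against the control diet 1 rose (*Me1*, edgeR adjusted p = 0.0187, where 2.18% of all genes were called), 4 had an unadjusted p under 0.05 and DESeq2 called 3. *Nqo1*, a quinone reductase, rose by 2.29 between genotypes (SE 0.250, edgeR adjusted p = 4.49e-06) and by 1.87 with BSO (edgeR adjusted p = 0.00154). *Gsr*, glutathione reductase, rose by 1.00 (SE 0.139, edgeR adjusted p = 5.2e-05) and by 0.90 with BSO (edgeR adjusted p = 0.00507). The study itself names *Srxn1* and *Nqo1* among the genes of this response, so that their direction is not independent evidence.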

How the data were processed

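The authors deposited 1 table of raw counts per gene, made from paired-end reads of poly(A) RNA (NEBNext Ultra). The submitters' processing notes name HISAT2 2.1.0, HTSeq 0.11.0 and GRCm38, while the annotation release and strand setting are not given in the sources used here. Columns were matched to groups through the study's list of mice, and 20 of 21 were used, since the list gives no condition for the mouse of the other. Counts were filtered with filterByExpr (10 and 15 counts), scaled with TMM and fitted over all 6 groups with edgeR's quasi-likelihood test (14759 genes, common dispersion 0.0270, edgeR 4.0.16, R 4.3.3), with Benjamini-Hochberg adjustment over all genes and a threshold of 0.05. CPM and RPKM were computed from these counts and TMM factors. Two-sided 95% intervals come from the same fit. Libraries of a group differed by more than sampling noise, with a chi-square of 9.60 to 64.2 per gene over 25 pairs. Scripts were tested on simulated data. Alternatives were RLE or upper-quartile scaling, other filters, a fit of only the groups compared, DESeq2 1.42.0, a threshold of 0.01, thinning to the shallowest library and leaving out each library. Members, marker and gene lists were chosen with earlier results of these data known. Named were all members, the 8 further thioredoxin-system genes with the largest called change and the 5 genes most correlated with *Srxn1* and *Txnrd1*, and other NRF2 targets and *Txnip* beyond that. Markers of sinusoidal, stellate, bile duct, immune and dividing cells were summed too. limma 3.58.1 and Python 3.11.15 were also used.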

Additional observations from a re-analysis of the deposited data

Results flagged for a closer look

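In 3 members the difference between *Cse*-/- and *Cse*+/- livers itself differed between the no-Cys and the no-Trp diet, by the interaction term of the edgeR fit. For *Srxn1* it was larger by 1.58 on the log2 scale on the no-Cys diet (SE 0.203, edgeR adjusted p = 5.11e-04). For *Txnrd1* it was larger by 0.54 (95% interval 0.23 to 0.86, edgeR adjusted p = 0.0468), a call that was lost on leaving out 11 of the 14 libraries in turn (up to 0.0971), with no filter on low counts (0.0632) and with the other groups left out of the model (0.0620). For *Prdx4* the interaction was -0.65 (95% interval -0.92 to -0.38, edgeR adjusted p = 0.00711).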

How the results depend on the processing

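Between genotypes on the no-Cys diet 4 members were called under all 8 other settings and 4 to 5 on leaving out a library. Against *Cse*-/- no-Trp, the 5 calls became 3 with no filter on low counts or a threshold of 0.01 and 1 when other groups were left out of the model (3 to 5 on leaving out a library, fewest without av07, av14 or av15). With BSO the 2 calls became 1 without the other groups and at 0.01 (1 to 2 on leaving out a library). Between BSO and no-Cys *Cse*-/- livers the 1 call became 0 with RLE or upper-quartile scaling, no filter, the other groups left out or 0.01 (0 to 2 on leaving out a library). For *Cse*+/- no-Cys against control 0 became 1 with no filter, a CPM filter or DESeq2 (0 to 1 on leaving out a library), and the interaction gave 2 to 3. *Prdx5* with BSO, at 0.0049, became -0.0019 with RLE, -0.017 with upper-quartile scaling, -0.00085 with the other groups left out and -0.0016 with DESeq2 (-0.076 to 0.096 on leaving out a library). *Txn1* ranged from -0.16 to 0.042 between genotypes on no-Cys and from -0.13 to 0.14 against *Cse*-/- no-Trp on leaving out a library, and *Glrx* from -0.14 to 0.18 in the latter. The cause was not tested. Of 738 member values under the alternatives, 670 kept direction and side of the threshold, 47 lost a call, 6 gained one and 15 changed sign.

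Over all genes, the count between genotypes on no-Cys, 3515, became 1860 at 0.01. Against *Cse*-/- no-Trp 1535 became 521 with the other groups left out and 467 at 0.01. With BSO 117 became 287 with no filter, 75 with the other groups left out, 356 with DESeq2 and 28 at 0.01. BSO against no-Cys *Cse*-/- gave 406, then 878 with DESeq2 and 40 at 0.01. Genotypes on no-Trp gave 389, then 83 with the other groups left out, 723 with DESeq2 and 72 at 0.01. No-Cys against control gave 322, then 486 with no filter, 138 with the other groups left out, 615 with DESeq2 and 62 at 0.01. No-Trp against control gave 7, then 71, 3, 60 and 1 in the same order. The interaction gave 643, then 375 with the other groups left out, 1058 with DESeq2 and 160 at 0.01. Leaving out 1 library kept the first count at 2664 to 3500. It moved the second to 683 without av14, 850 without av06, 858 without av05 and 978 without av07, and the third to 36 without av09, 48 without av11, 50 without av15 and 74 without av12. The fourth fell to 52 without av06 and to between 68 and 161 without av05, av07, av09, av11 or av12, and rose to 1027 without av08. Genotypes on no-Trp gave 109 without av15, 120 without av19 and 173 without av20. No-Cys against control gave 10 without av22, 169 without av02, 211 without av21 and 214 without av03, and no-Trp against control 2 without av17, av20 or av22. The interaction gave 350 without av07, 363 without av02, 415 without av06, 424 without av17 and 1150 without av08.

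No paired analysis was possible because the columns carry none of the replicate numbers of the labels. With a control library left out the lone control is assumed to vary like the other groups. With 2 control livers and 3 no-Trp livers per genotype the intervals of small differences stay wide, and the shallowest libraries gave *Srxn1* no fewer than 239 counts.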
